A study of Mus musculus with 20 samples.

Results

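Transcript levels of 8 genes, 6 of the glucocorticoid response and 2 metallothioneins, were followed in the livers of 20 mice. They were chosen by name, as the rows of the count table whose Ensembl identifiers carry the symbols Nr3c1, Fkbp5, Tsc22d3, Sgk1, Zbtb16, Tat, Mt1 and Mt2, and they are 8 of the 21780 genes in that table. All 8 passed the filter on low counts that left 15522 genes for testing. The mice were male C57Bl/6J, and all received a high-fat diet (HFD, 42% of calories from fat) for 12 weeks. HFD control received corn oil, HFD + Aroclor received Aroclor 1260 (20 mg/kg), HFD + PCB 126 received PCB 126 (20 µg/kg) and HFD + Aroclor + PCB 126 received both, with 5 mice in each group. The agents were given once by oral gavage at 10 weeks of age, and livers were taken after a fast of about 6 hours. The methods give 10 weeks between gavage and collection, whereas the labels give 12 weeks of treatment. Aroclor 1260 is a commercial mixture of polychlorinated biphenyls (PCBs) in which dioxin-like congeners are scarce, and PCB 126 is a dioxin-like congener that activates the aryl hydrocarbon receptor (AhR). No group without the HFD and no female mice are included, so the values describe exposure on top of the diet.

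Glucocorticoids cross the cell membrane and bind the glucocorticoid receptor, which is held in the cytoplasm by HSP90 and its co-chaperones. The bound receptor enters the nucleus and acts on genes through inverted repeats of a hexamer, the glucocorticoid response element. In the fasting liver it promotes glucose production and amino acid breakdown, and it also induces inhibitors of its own signal. Metallothioneins are small cysteine-rich proteins that bind zinc and copper. Their genes are induced by metals through the factor MTF1, which binds metal response elements, and also by glucocorticoids and oxidative stress.

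On GRCm38, Fkbp5 (ENSMUSG00000024222) spans chr17:28399094-28517527 and Tsc22d3 (ENSMUSG00000031431) spans chrX:140539528-140600659, both on the minus strand. Sgk1 (ENSMUSG00000019970) spans chr10:21882184-21999903 on the plus strand, Zbtb16 (ENSMUSG00000066687) spans chr9:48654297-48836222 on the minus strand and Tat (ENSMUSG00000001670) spans chr8:109990437-109999803 on the plus strand. Mt2 (ENSMUSG00000031762) at chr8:94172664-94173568 and Mt1 (ENSMUSG00000031765) at chr8:94179082-94180327 are both on the plus strand, 5513 bases apart. None of the 8 genes, Nr3c1 included, overlaps another gene of the table.

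Promoter windows from RefSeq on GRCm38.p6, 250 bases before to 50 after a start, were at hand for 6 of the 8 genes, with 13 windows in all. Those of Mt1, Mt2 and Sgk1 are shown because they hold matches to the response elements named above. The windows of Mt1 (chr8:94178839-94179138, plus strand) and Mt2 (chr8:94172368-94172667, plus strand) are printed with matches to the metal response element core, TGCACNC or TGCGCNC on either strand, in capitals.
Mt1: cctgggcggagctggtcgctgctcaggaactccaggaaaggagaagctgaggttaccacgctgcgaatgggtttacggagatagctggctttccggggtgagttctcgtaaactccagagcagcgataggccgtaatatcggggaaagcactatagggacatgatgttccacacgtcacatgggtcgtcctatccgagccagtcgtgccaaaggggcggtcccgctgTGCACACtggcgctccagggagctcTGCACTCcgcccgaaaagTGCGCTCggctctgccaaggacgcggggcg
Mt2: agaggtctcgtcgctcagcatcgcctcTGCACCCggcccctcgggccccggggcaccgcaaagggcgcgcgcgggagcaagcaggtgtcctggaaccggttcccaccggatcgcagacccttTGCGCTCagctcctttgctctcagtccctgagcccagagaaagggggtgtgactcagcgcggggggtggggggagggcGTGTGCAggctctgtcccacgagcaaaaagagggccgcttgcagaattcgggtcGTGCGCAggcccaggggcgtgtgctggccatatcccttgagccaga
The Mt1 window held 3 matches, at -23 to -17, 2 to 8 and 20 to 26 counted from the start as 0, and the Mt2 window held 4. Among 32851 promoter windows, 25.7% held at least 1 match, 1.97% at least 3 and 0.517% at least 4. Mt2 also held 1 match to the antioxidant response element core TGACNNNGC, found in 12.4% of windows. The AhR core GCGTG, found in 32.4% of windows, matched at 1 place in the Mt1 window and at 2 in the Mt2 window, of which the one at -52 to -48 overlaps a metal response element match. The same core also matched in windows of Tsc22d3 (1 and 2 places) and of Sgk1 (1 and 1). A Sgk1 window that is not shown held 1 metal response element match, at 11 to 17.

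For Sgk1, the window at chr10:21993640-21993939 (plus strand), 1 of 6 windows of this gene, held the full palindromic glucocorticoid response element, in capitals, at -189 to -175.
Sgk1: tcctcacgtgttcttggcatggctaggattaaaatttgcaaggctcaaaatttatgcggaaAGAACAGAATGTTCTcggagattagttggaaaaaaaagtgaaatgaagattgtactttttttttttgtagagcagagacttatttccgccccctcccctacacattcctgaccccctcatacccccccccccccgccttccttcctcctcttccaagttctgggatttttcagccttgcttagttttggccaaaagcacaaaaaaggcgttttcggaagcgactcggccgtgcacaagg
Such a palindrome of the hexamers AGAACA and TGTTCT, 3 bases apart, was in 3 of the 32851 windows (0.00913%), whereas the single hexamer TGTTCT, on either strand, was in 18.97%. Other windows of Sgk1 and a window of Tsc22d3 also held this single hexamer. The 1 window of Fkbp5 and the 1 window of Tat held no match to any of the 5 motifs. Matches of letters are a description of these windows only, and no binding was measured.

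The libraries held 21836506 to 36854887 counts each. Hepatocyte markers (Alb, Apoa1, Ttr, Cps1 and Cyp2e1) summed to 83180 to 118224 CPM (TMM-normalized counts scaled to a common library size), so the defining markers of liver were present in every library. The libraries also differed in how counts depended on GC content. The GC slope was fitted to each gene's log2 CPM less its mean over the 20 libraries, for genes with a positive mean log2 CPM. It is the change per 10 percentage points of GC relative to the average library, not the full dependence of counts on GC. It was 0.24 ± 0.17 (SD, n = 5) in HFD control, 0.011 ± 0.082 with Aroclor, 0.11 ± 0.19 with PCB 126 and -0.36 ± 0.20 with both agents. The lowest control library was at -0.0013 and the highest combined library at -0.12, so these groups did not overlap. Library order follows the groups, so that order and exposure cannot be told apart.

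On the FPKM scale, which is CPM per kilobase of exon, Tat was the most abundant of the 8 transcripts, at 545 ± 153 (SD, n = 20). Tat encodes tyrosine aminotransferase, the liver enzyme of tyrosine breakdown. Mt2 (172 ± 79.7) and Mt1 (138 ± 56.7) followed. Tsc22d3 (19.1 ± 7.08), Nr3c1 (9.99 ± 2.31), Sgk1 (5.65 ± 2.01), Fkbp5 (4.07 ± 1.39) and Zbtb16 (2.29 ± 1.90) were lower. The ranges of neighbours in this order overlapped, except those of Mt1 and Tsc22d3, which were apart (61.5 at the lowest for Mt1 and 37.2 at the highest for Tsc22d3). The place of Mt2 before Mt1 rests on the exon lengths used, 588 bases for Mt2 and 1246, its whole annotated span, for Mt1. In CPM, Mt1 had the higher mean (172 against 101 for Mt2).

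**Figure D1:**
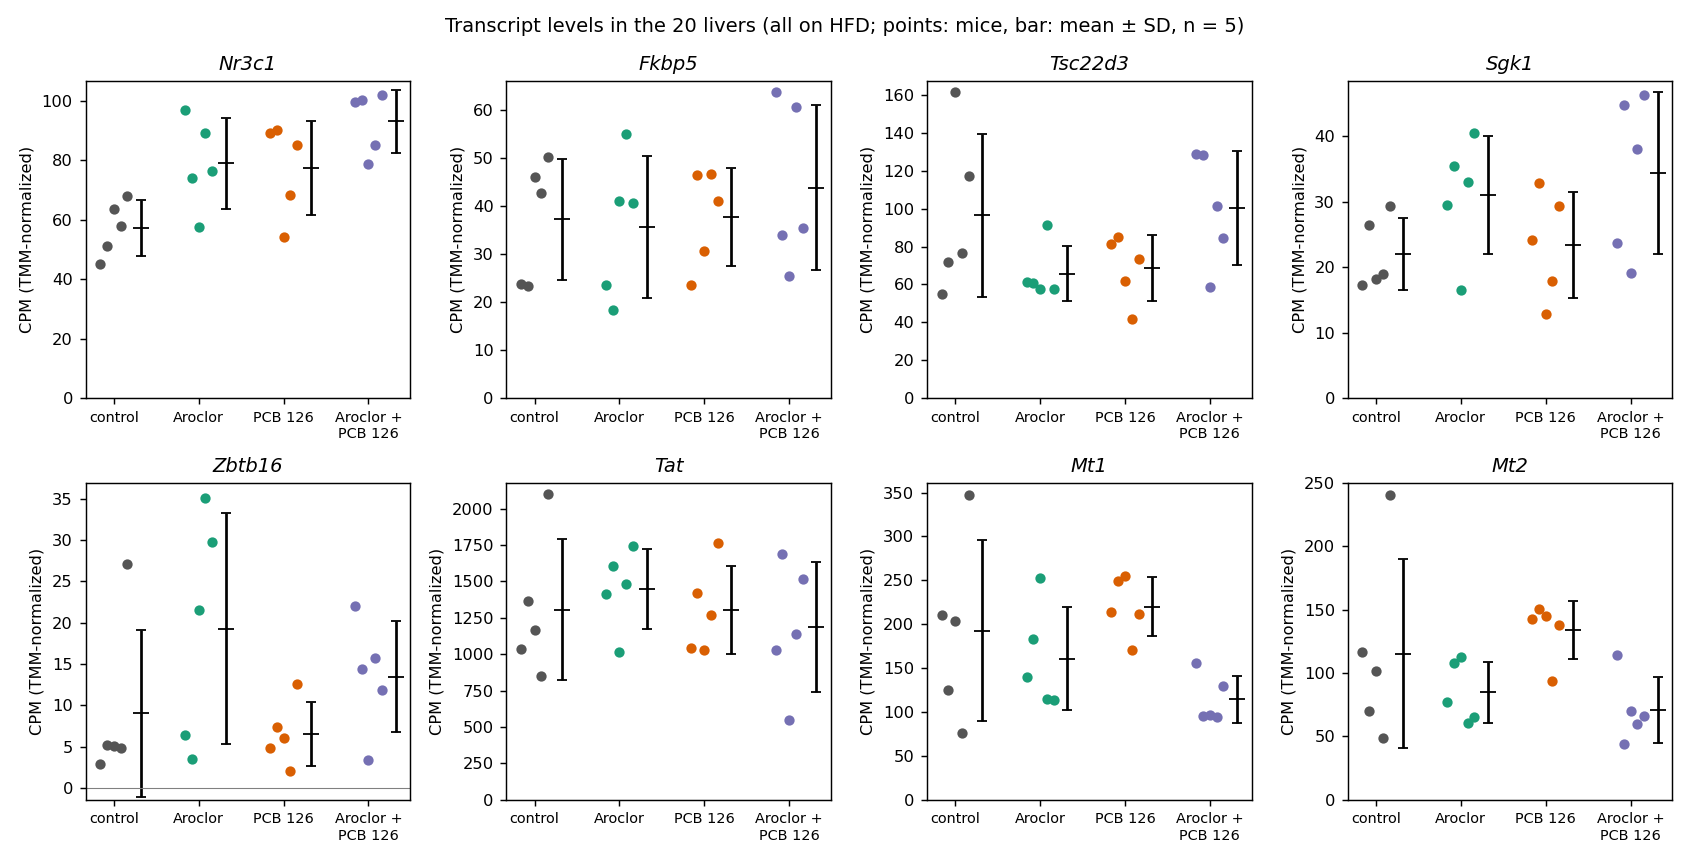
CPM of the 8 genes in each of the 20 mice (y axis, linear, TMM-normalized) by exposure group on HFD (x axis), with points for mice and a bar for the mean ± SD of 5 mice. The 5 livers with both agents sit at 78.8 to 102 CPM for Nr3c1, above the 44.99 to 68.1 CPM of HFD control, and at 94.5 to 155 CPM for Mt1, below the 170 to 255 CPM of HFD + PCB 126.

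Nr3c1 (ENSMUSG00000024431, chr18:39410545-39519421, minus strand), which encodes the glucocorticoid receptor, was higher in the livers with both agents than in HFD control. Its CPM in replicates 1 to 5 was 44.99, 51.2, 63.6, 58.1 and 68.1 in HFD control, 97.1, 74.3, 57.7, 89.4 and 76.5 with Aroclor, 89.4, 90.2, 54.2, 68.3 and 85.4 with PCB 126 and 99.6, 100.4, 78.8, 85.2 and 102 with both agents. Every liver with both agents was above every control liver, while each single exposure overlapped HFD control. Groups without overlap, higher with both agents, were found for 10.6% of the 15522 genes. The log2FC against HFD control was 0.71 (SE 0.154), a 1.63-fold difference (adjusted p = 0.00241, edgeR's quasi-likelihood test with Benjamini-Hochberg adjustment). Nr3c1 was the only 1 of the 8 genes past the threshold (adjusted p under 0.05) in this comparison, in which 32.8% of all genes passed and 15.8% were higher. With Aroclor alone the log2FC was 0.47 (SE 0.154, adjusted p = 0.199) and with PCB 126 alone 0.44 (SE 0.154, adjusted p = 0.203), both of which missed the threshold. By edgeR or DESeq2, none of the 8 genes passed in either. With Aroclor 0% of all genes passed by edgeR, and an unadjusted p under 0.05 was found for 17.2% of all genes and for 2 of the 8 (Nr3c1 and Tsc22d3). With PCB 126 these shares were 0.116% and 14.7%, and Nr3c1 was the 1 of the 8. The control mice are shared by the 3 comparisons.

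The Nr3c1 result moved with the GC correction. Nr3c1 transcripts are AT-rich (GC 42.2%, percentile 13.3 of the tested genes), and over the 20 mice its log2 CPM had r = -0.80 and rho = -0.83 with the GC slope of the library (points share library and exposure). With a GC offset the log2FC was 0.30 (adjusted p = 0.0918 by edgeR), and 11.4% of all genes passed and none of the 8. The means of the GC-adjusted CPM were 64.4 ± 7.69 (SD, n = 5) in HFD control and 79.1 ± 7.49 with both agents. Their ranges of 56.5 to 73.4 and 68.8 to 86.2 overlapped. With Aroclor alone the offset gave a log2FC of 0.27 (adjusted p = 0.305) and a mean of 77.6 ± 12.1. PCB 126 alone gave 0.32 (adjusted p = 0.184) and 80.6 ± 8.97. After adjustment the mean with both agents was therefore near those of the single exposures, and the one with PCB 126 alone was highest. The 3 genes most like Nr3c1 over the 20 libraries, among 11341 genes at 1 CPM or more on average, were Slc25a16 (r = 0.98), Pde3b (r = 0.97) and Zyg11b (r = 0.97), whose GC contents were 43.4%, 44.0% and 43.2%. With GC-adjusted values their r with Nr3c1 was 0.93, 0.86 and 0.92. Slc25a16 is a mitochondrial carrier, Pde3b is a phosphodiesterase and Zyg11b is part of a ubiquitin ligase.

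**Figure D2:**
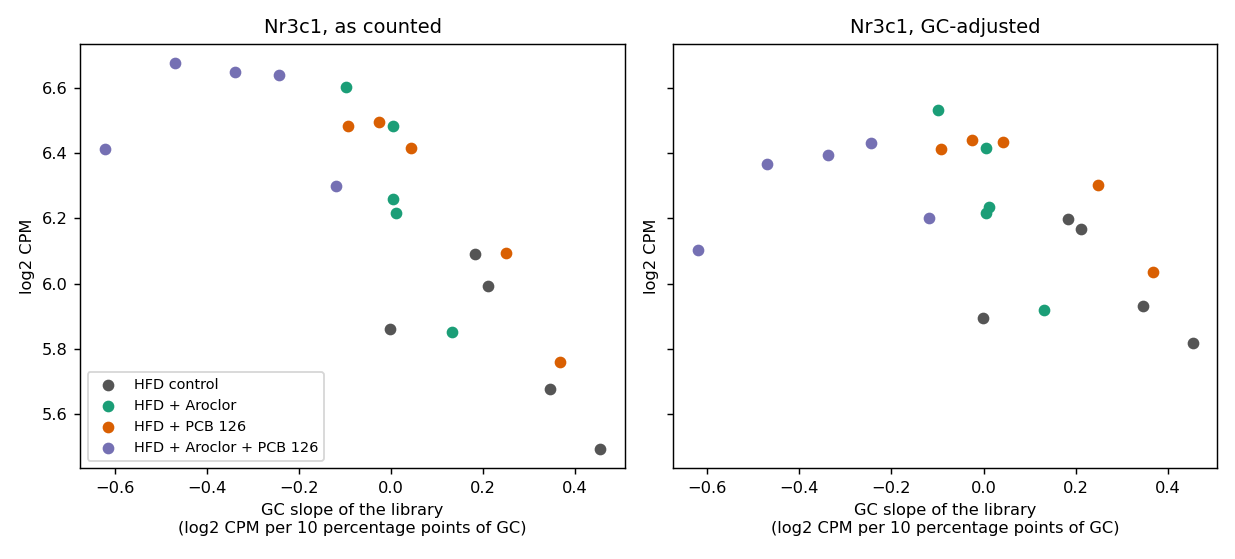
log2 CPM of Nr3c1 (y axis) against the GC slope of each library (x axis, log2 CPM per 10 percentage points of GC), as counted (left) and GC-adjusted (right), with a point per mouse coloured by group. As counted, points fall from upper left, where the livers with both agents lie, to lower right, where 4 of 5 control livers lie (r = -0.80), and after adjustment the fall is shallower (r = -0.48).

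Of the 4 regulators induced through the receptor, Fkbp5, Tsc22d3, Sgk1 and Zbtb16, none passed the threshold in any of the 6 comparisons. Fkbp5 encodes an HSP90 co-chaperone that lowers the hormone binding of the receptor. Its CPM was 23.8, 23.4, 45.9, 42.6 and 50.05 in HFD control, 23.4, 18.3, 40.9, 54.8 and 40.6 with Aroclor, 23.6, 46.3, 30.5, 46.6 and 40.9 with PCB 126 and 63.7, 33.9, 25.4, 60.5 and 35.3 with both agents. All 4 groups overlapped, each with at least 1 liver below 26 CPM. The log2FC against control was -0.059 (95% interval -0.70 to 0.58) with Aroclor, 0.018 (-0.62 to 0.66) with PCB 126 and 0.24 (-0.40 to 0.88) with both, none of them past the threshold.

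Tsc22d3 encodes GILZ, an anti-inflammatory effector of glucocorticoids. Its CPM was 55.1, 71.7, 162, 76.8 and 117 in HFD control, 61.2, 60.8, 57.9, 91.3 and 57.6 with Aroclor, 81.4, 85.2, 61.98, 41.8 and 73.4 with PCB 126 and 129, 128, 58.5, 101 and 84.3 with both agents. Means were lower with either agent alone (65.7 ± 14.4 and 68.7 ± 17.5 CPM, SD, n = 5) than in HFD control (96.5 ± 42.9) or with both (100.2 ± 30.02), but all groups overlapped. The log2FC was -0.55 (SE 0.263, adjusted p = 0.286) with Aroclor, -0.49 (SE 0.263, adjusted p = 0.396) with PCB 126 and 0.055 (SE 0.262, adjusted p = 0.903) with both. The interaction, the log2FC with both agents less the sum of the single ones, was 1.10 (SE 0.372, unadjusted p = 0.00787) and did not pass adjustment by edgeR over all genes (adjusted p = 0.301). No gene of the table passed for the interaction (0%), where 11.9% had an unadjusted p under 0.05.

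Sgk1 encodes a kinase of ion transport and metabolism downstream of insulin and glucocorticoids. Its CPM was 17.2, 26.4, 18.3, 18.9 and 29.4 in HFD control, 29.5, 35.4, 16.5, 32.99 and 40.5 with Aroclor, 24.2, 32.8, 12.9, 17.97 and 29.3 with PCB 126 and 23.7, 44.8, 19.2, 38.03 and 46.3 with both agents. With both, 3 of 5 livers were above the highest control and the other 2 were within its range. The log2FC with both agents was 0.64 (95% interval 0.066 to 1.22, adjusted p = 0.0809 by edgeR), short of the threshold. With the GC offset it was 0.55 (adjusted p = 0.199). Of 10 fits that each left out 1 mouse, 1 passed, without HFD + Aroclor + PCB 126 replicate 3 (0.78, adjusted p = 0.0328). Over the 10 fits it ran from 0.51 to 0.78, with adjusted p up to 0.204. A replicate block gave 0.59 (adjusted p = 0.00537), but equal numbers were not taken as pairing the mice. With Aroclor alone the log2FC was 0.49 (-0.083 to 1.07) and with PCB 126 alone 0.090 (-0.49 to 0.67).

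Zbtb16 encodes PLZF, a transcription factor that glucocorticoids induce strongly in many cells. It varied 17.6-fold over the 20 mice, the widest range of the 8 genes. Its CPM was 2.85, 5.25, 5.11, 4.87 and 27.1 in HFD control, 6.38, 3.47, 21.5, 35.2 and 29.8 with Aroclor, 4.86, 7.31, 6.03, 1.99 and 12.6 with PCB 126 and 22.003, 14.4, 3.39, 15.8 and 11.9 with both agents. Each group held at least 1 liver under 7 CPM, which with both agents was only replicate 3 (3.39 CPM). The log2FC had wide intervals, from -0.23 to 2.44 with Aroclor, -1.80 to 0.90 with PCB 126 and -0.75 to 1.92 with both. None passed the threshold.

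For Tat, the CPM was 1035, 1367, 1169, 847 and 2100 in HFD control, 1410, 1607, 1014, 1480 and 1741 with Aroclor, 1041, 1418, 1029, 1266 and 1762 with PCB 126 and 1029, 1691, 551, 1137 and 1518 with both agents. The groups overlapped throughout. The log2FC was 0.15 (95% interval -0.38 to 0.69) with Aroclor, -0.00067 (-0.54 to 0.54) with PCB 126 and -0.14 (-0.68 to 0.40) with both, and none passed the threshold.

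As counted, the metallothioneins had their lowest group means with both agents (114 ± 27.2 CPM for Mt1 and 70.9 ± 26.1 for Mt2, SD, n = 5). After GC adjustment this was so for Mt1, while Mt2 was at 83.6 with both agents and 82.6 with Aroclor. Mt1 CPM was 210.01, 125, 204, 76.6 and 348 in HFD control, 140.2, 183, 253, 114 and 114 with Aroclor, 214, 249, 255, 170.4 and 212 with PCB 126 and 155, 95.2, 96.8, 94.5 and 129 with both. Every liver with both agents was below every liver with PCB 126 alone, while HFD control spanned both groups. Mt1 fell by 0.95 on the log2 scale (SE 0.296, adjusted p = 0.0361, edgeR's quasi-likelihood test) with both agents against PCB 126 alone. It was the only 1 of the 8 genes past the threshold there, where 16.7% of all genes passed and 11% were lower, and 5.93% of all genes were lower without overlap. With a GC offset the log2FC was -0.78 (adjusted p = 0.139, with 1.34% of all genes past the threshold). As counted, it passed in only 2 of 10 fits that each left out 1 mouse, with log2FC from -1.08 to -0.89 and adjusted p from 0.0288 to 0.0942. It was kept without HFD + PCB 126 replicate 1 or HFD + Aroclor + PCB 126 replicate 1 and lost without any other mouse of these groups.

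Mt2 CPM was 116, 69.96, 101, 48.9 and 240.3 in HFD control, 77.2, 108, 113, 60.2 and 65.5 with Aroclor, 142, 150.2, 145, 93.9 and 138 with PCB 126 and 114, 43.996, 70.3, 60.1 and 65.9 with both. With PCB 126 alone, 4 of 5 livers were at 138 to 150 CPM, above the 5 livers with both agents, and replicate 4 at 93.9 CPM was within their range. The log2FC of both agents against PCB 126 alone was -0.92 (SE 0.322, adjusted p = 0.0544), close to that of Mt1 and just short of the threshold. Against HFD control it was -0.70 (SE 0.322, adjusted p = 0.1001) for Mt2 and -0.75 (SE 0.295, adjusted p = 0.0554) for Mt1. These depended on single mice. Without control replicate 5, the highest control liver for both genes (348 CPM for Mt1 and 240.3 for Mt2), they were -0.25 (adjusted p = 0.518) for Mt2 and -0.43 (adjusted p = 0.239) for Mt1. Both passed without control replicate 4, the lowest control liver (-0.90, adjusted p = 0.0223, for Mt2 and -0.95, adjusted p = 0.00673, for Mt1), and without HFD + Aroclor + PCB 126 replicate 1 (adjusted p = 0.0361 for Mt2 and 0.0382 for Mt1), and Mt1 also passed without control replicate 2 (adjusted p = 0.0345). Against Aroclor alone, the log2FC was -0.49 (adjusted p = 0.310) for Mt1 and -0.26 (adjusted p = 0.648) for Mt2, with none of the 8 genes past the threshold by edgeR or DESeq2. Of all genes 0.412% passed there, and an unadjusted p under 0.05 was found for 23.5% of them and 1 of the 8 (Tsc22d3).

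**Figure D3:**
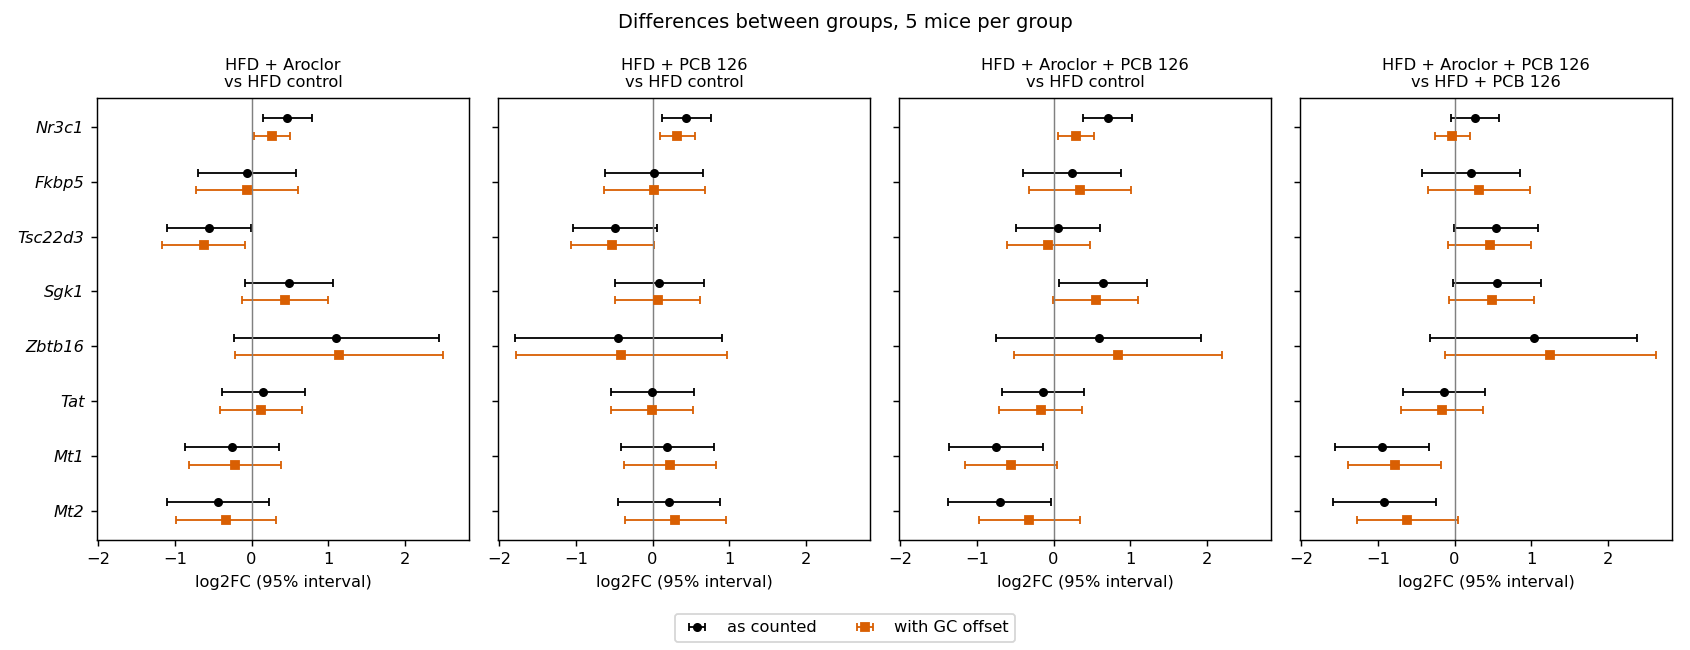
log2FC with 95% intervals (x axis) of the 8 genes (y axis) in 4 comparisons of 5 mice against 5, as counted (black circles) and with a GC offset (orange squares). As counted, Nr3c1 in the third panel (0.71) and Mt1 in the fourth (-0.95) were past the threshold, and with the offset they were 0.30 and -0.78.

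Mt1 and Mt2 varied together over the mice. Mt1 had 1.74 ± 0.243 (SD, n = 20) counts for each count of Mt2, with a range of 1.36 to 2.25 over the mice. Their log2 CPM had r = 0.95 and rho = 0.94 over the 20 mice, 0.93 for the deviations from the group means and 0.93 without the 2 mice farthest from the median of Mt1. Points of 1 mouse share a library, and each gene was the most alike of all to the other. The next for Mt1 were Ssbp3 (r = 0.80) and Cnppd1 (r = 0.77), and for Mt2 they were Ddx28 (r = 0.73) and Ube2cbp (r = 0.72), well below.

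**Figure D4:**
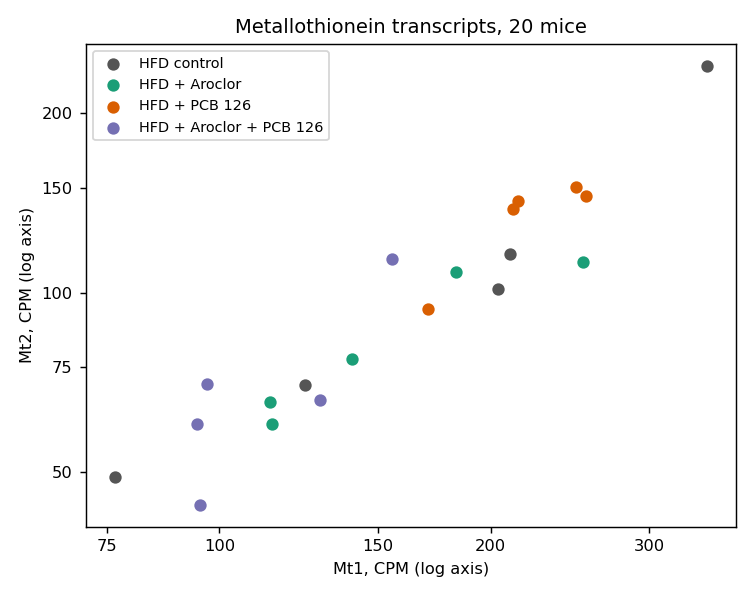
Mt2 against Mt1 in CPM (both log axes), a point per mouse coloured by group. The points follow a common line (r = 0.95), with control replicate 5 highest (348 and 240.3 CPM) and the livers with both agents in the lower part.

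Among the other pairs, the highest r values were between glucocorticoid genes. Sgk1 and Tat had r = 0.65 over the 20 mice (rho = 0.72) and 0.82 for the deviations from the group means. Nr3c1 and Sgk1 had r = 0.69 and 0.67, and Fkbp5 and Zbtb16 had r = 0.60 and 0.69, in the same order. Both Nr3c1 and Sgk1 also followed the GC slope of the library (r = -0.80 and -0.67, and -0.48 and -0.63 after GC adjustment). The part of that slope in their correlation was not tested. Between a metallothionein and any of the 6 other genes, r lay between -0.34 and 0.26. Of the 3 most alike to each gene, those of Sgk1 were Trp53inp1 (r = 0.88), C9orf72 (r = 0.87) and Klf3 (r = 0.86), those of Tat were Tnfrsf1b (r = 0.88), Slc38a2 (r = 0.85) and Irs2 (r = 0.84), and those of Zbtb16 were Tmc7 (r = 0.86), Il6ra (r = 0.81) and Slc10a2 (r = 0.80). Slc38a2 is an amino acid transporter and Irs2 an insulin receptor substrate. Those of Fkbp5 were St3gal5 (r = 0.79), Eif1a (r = 0.76) and Ski (r = 0.75), and those of Tsc22d3 were Tmcc1 (r = 0.81), Yod1 (r = 0.77) and Ugt2b1 (r = 0.74).

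**Figure D5:**
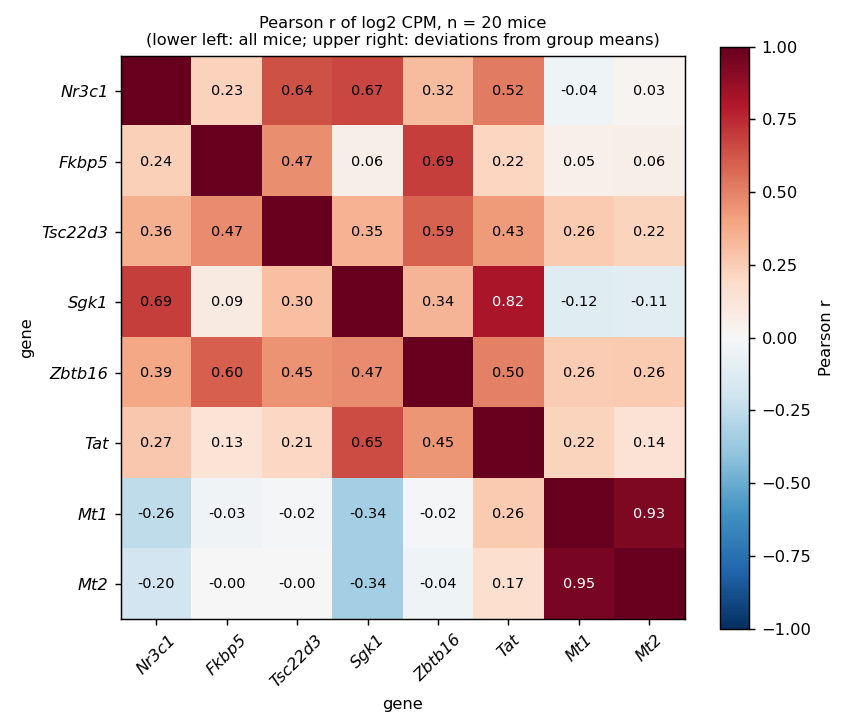
Pearson r of log2 CPM for each pair of the 8 genes over 20 mice, over all mice (lower left) and as deviations from the group means (upper right), on a colour scale from -1 to 1. The strongest pair is Mt1 with Mt2 (0.95 and 0.93), and the next as deviations is Sgk1 with Tat (0.82).

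In the list of 15 genes of the glucocorticoid receptor machinery, none passed with Aroclor or PCB 126 alone. With both agents 2 rose and 5 fell against HFD control (15.8% and 17% of all genes), and the median log2FC of the list was 0.21 against -0.0010 over all genes. With the GC offset these medians were -0.041 and -0.012. Hspa8, a chaperone of receptor assembly, fell by 0.94 on the log2 scale (adjusted p = 0.00271), from 1142 ± 456 to 594 ± 86.6 CPM (SD, n = 5). Stip1, the adaptor between chaperones, fell by 0.81 (adjusted p = 0.00258), Hsp90ab1, an HSP90 isoform, by 0.62 (adjusted p = 0.00656) and Fkbp4, the co-chaperone that favours nuclear entry, by 0.60 (adjusted p = 0.00249). Hsp90aa1, the other HSP90 isoform (-0.77, adjusted p = 0.146), and Ptges3, the co-chaperone p23 (0.21, adjusted p = 0.221), did not pass. H6pd, which supplies NADPH for the reactivation of glucocorticoids, fell by 0.41 (adjusted p = 0.0304). Akr1d1, which reduces and so clears steroid hormones, rose by 1.40 (adjusted p = 0.00116 by edgeR), from 101 ± 33.96 to 267 ± 41.4 CPM. Its groups did not overlap, and 10.6% of all genes were higher without overlap in this comparison. Ncor1, a corepressor, rose by 0.44 (adjusted p = 0.0424). It overlaps Pigl on the other strand, and without a stated strand setting their reads cannot be told apart. With the GC offset 1 rose and 3 fell (4.26% and 7.18% of all genes). The fall of Hspa8 (-1.16), Stip1 (-0.72) and Hsp90ab1 (-0.56) and the rise of Akr1d1 (0.90) passed, while Fkbp4, H6pd and Ncor1 did not.

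Of 19 other genes induced or regulated by glucocorticoids, none passed with either agent alone, and 3 rose and 1 fell with both, against 15.8% and 17% of all genes (median log2FC 0.11). The share that rose was that of all genes. Tdo2, the first enzyme of tryptophan breakdown, rose by 0.38 (adjusted p = 0.0327), G6pc, the last enzyme of glucose production, by 0.82 (adjusted p = 0.0497) and Bcl6, a transcriptional repressor, by 1.496 (adjusted p = 0.0409). Bcl6 overlaps Gm37419 on the other strand. Per1, a clock gene and early glucocorticoid target, fell by 0.65 (adjusted p = 0.0366). With the GC offset none of these 4 passed, and 1 other gene, Cebpb, a transcription factor of gluconeogenesis that overlaps Tmem189 on the other strand, had a log2FC of 1.14 (adjusted p = 0.00331) and 0.038 (adjusted p = 0.904) without it. Between both agents and PCB 126 alone, Got1, an aminotransferase of gluconeogenesis, fell by 0.78 (adjusted p = 0.0454) and Fkbp4 by 0.52 (adjusted p = 0.0179), the only genes of these 2 lists to pass, where 11% of all genes were lower. With the GC offset neither passed (-0.64, adjusted p = 0.193, for Got1 and -0.22, adjusted p = 0.277, for Fkbp4).

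In the list of metal handling genes, 7 of 9 were tested, as Mt3 and Mt4 had 4 and 1 counts in all libraries together. None passed with either agent alone, and with both 2 rose and 1 fell, against 15.8% and 17% of all genes (median log2FC -0.057, and 0.052 with the GC offset). Slc30a1, the zinc exporter of the plasma membrane, rose by 0.66 (SE 0.12, adjusted p = 0.00104 by edgeR), from 28.5 ± 4.49 to 45.1 ± 3.64 CPM. Its groups did not overlap, and 10.6% of all genes were higher without overlap in this comparison. With the GC offset Slc30a1 passed too (0.44, adjusted p = 0.00917). Slc39a10, a zinc importer, rose by 0.88 (adjusted p = 0.0393) at a low level of 2.59 ± 0.594 CPM, and did not pass with the offset (0.57, adjusted p = 0.226). Slc30a10, a manganese exporter, fell by 0.47 (adjusted p = 0.0273), and with the offset by 0.59 (adjusted p = 0.0133). Slc39a8, a zinc and manganese importer, passed only with the offset, at -0.34 (adjusted p = 0.0244). Slc30a1 is known to be induced through MTF1 like the metallothioneins, whose log2FC in the same comparison was -0.75 for Mt1 and -0.70 for Mt2, both short of the threshold.

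Markers of other liver cells were present in all libraries. Summed CPM of 5 stellate cell markers (Lrat, Reln, Dcn, Colec11 and Des) was 135 to 265 in HFD control and 271 to 346 with both agents, without overlap. Of single genes, 10.6% were higher without overlap in this comparison. Of the stellate cell markers, 3 of 5 passed higher and 1 lower, against 15.8% and 17% of all genes, and with the GC offset 1 passed higher and 0 lower. Summed Kupffer cell markers (5 genes) were at 167 to 392 and 225 to 304 CPM, endothelial markers (5) at 82.9 to 170.1 and 115 to 139, cholangiocyte markers (5) at 66.0 to 74.5 and 62.9 to 129.97 and lymphocyte markers (4) at 7.94 to 17.7 and 15.1 to 18.1. Of the other markers, 2 hepatocyte and 1 endothelial marker passed lower, 1 Kupffer cell and 1 lymphocyte marker passed higher and 0 cholangiocyte markers passed (smallest adjusted p = 0.0979). With the GC offset 1 hepatocyte and 1 endothelial marker passed, both lower. Their part in the results for Nr3c1 and Mt1 was not tested. In whole liver, fewer cells of a type and less RNA per cell cannot be told apart.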

How the data were processed

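RNA-seq libraries of 20 livers were analysed, 5 per group. The authors isolated polyadenylated RNA, prepared stranded libraries (TruSeq), sequenced in 2 runs, used STAR (version 2.6) for alignment to GRCm38.p6 and obtained raw counts per gene with HTSeq (version 0.10.0), and they deposited 1 table of counts. Read quality was checked by the authors with FastQC (version 0.10.1). The annotation release and strand setting of the counting are not given in the sources used here. The runs were not tied to libraries. Symbols, positions and GC content (of the longest transcript) were taken from GENCODE M21 by Ensembl identifier, for 21754 of 21780 genes. The title was followed where the label of HFD + PCB 126 replicate 2 held another number.

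Genes with at least 10 counts in total (15522) entered TMM normalization and an edgeR fit (edgeR 4.0.16, R 4.3.3) with all 4 groups together (16 residual degrees of freedom). The quasi-likelihood test was two-sided with Benjamini-Hochberg adjustment over all tested genes, for 6 comparisons. CPM and FPKM (per exon length) were computed from the counts, and 95% intervals from the standard errors. The GC offset was a spline with 6 degrees of freedom on GC in each library. It was fitted to each gene's log2 CPM less the mean of that gene over the libraries, for genes with a positive mean log2 CPM. The alternatives were RLE size factors, DESeq2 1.42.0, no filter, the study's FPKM filter (at least 1 FPKM in 3 libraries), only the groups compared, a replicate block, the GC offset and leaving out each mouse. The script was tested on simulated data.

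The members and gene lists were chosen with earlier results of these data known. Named in the text are the 8 genes, up to 4 genes per list, comparison and direction past the threshold (mean of at least 1 CPM, smallest adjusted p first), the 3 genes most alike to each member and those whose role a sentence needs. In the receptor machinery list, H6pd also fell and was named after its value was seen. Mice are separate animals, and mass spectrometry data were not analysed here.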

Additional observations from a re-analysis of the deposited data

Results flagged for a closer look

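Of 32 combinations of gene and group, 3 had a liver whose gap to the others was wide by Dixon's criterion for 5 samples (0.71), and chance alone gives about 1 in 20. Tsc22d3 in HFD + Aroclor was at 91.3 CPM in replicate 4 and at 57.6 to 61.2 CPM in the other 4 mice. Zbtb16 in HFD control was at 27.1 CPM in replicate 5, against 2.85 to 5.25 CPM in the other 4, and this mouse also had the highest Tat, Mt1 and Mt2 of the 20. Mt2 in HFD + PCB 126 was at 93.9 CPM in replicate 4, against 138 to 150 CPM in the others.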

How the results depend on the processing

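The call on Nr3c1 with both agents held under RLE size factors, DESeq2, no filter, the FPKM filter, only the groups compared, a replicate block and each of 10 omissions of 1 mouse, and it was lost with the GC offset (0.30, adjusted p = 0.0918). The 95% intervals give the precision that 5 mice per group allowed. The interaction needs all groups, so it has no value for only the groups compared. The causes of the changes below were not tested.

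Of the 8 genes, the number past the threshold with both agents was 1 (HFD control) and 1 (HFD + PCB 126). Against HFD control it was 2 with RLE, a replicate block or DESeq2, 3 with the FPKM filter, 0 with the GC offset and 1 to 3 without 1 mouse. It was 3 without HFD control replicate 4 or HFD + Aroclor + PCB 126 replicate 1, and 2 without HFD control replicate 2 or HFD + Aroclor + PCB 126 replicate 3. Against HFD + PCB 126 it was 2 with the FPKM filter, DESeq2 or only the groups compared, 3 with a replicate block, 0 with the GC offset, with or without a replicate block, and 0 to 2 without 1 mouse. Mt1 against HFD control passed with RLE (adjusted p = 0.0498), the FPKM filter (0.0404) and DESeq2 (0.0227). It passed in 3 of 10 fits without 1 mouse, over a range of 0.00673 to 0.239. The replicate block with GC offset gave 0.291. Mt2 against HFD + PCB 126 passed with the FPKM filter (0.0378), DESeq2 (0.0451), only the groups compared (0.0400) and a replicate block (0.0325).

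Over all genes, DESeq2 called 135 with Aroclor, 320 with PCB 126, 1343 between both agents and Aroclor, and 1 for the interaction, where edgeR called 0, 18, 64 and 0. The FPKM filter gave 47 with PCB 126 and 636 between both agents and Aroclor, only the groups compared gave 4 and 0, and RLE (107) and no filter (13) changed the latter. The GC offset gave 50 with PCB 126, 1777 with both agents (5090 without), 10 against Aroclor and 208 against PCB 126 (2590 without). Without 1 mouse the counts were 0 to 2 with Aroclor, 4 to 127 with PCB 126, 0 to 1036 for both agents against Aroclor and 4 to 3416 against PCB 126. The last fell to 4 without HFD + PCB 126 replicate 3, 288 without its replicate 4, and 954 and 269 without HFD + Aroclor + PCB 126 replicates 4 and 5.

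Neither labels nor methods tie equal replicate numbers to each other, and not every same-numbered pair deviated together, so the numbers were not taken as pairing the samples. The correlation of deviations ran from -0.27 to 0.76 (median 0.062) over 30 same-numbered pairs and from -0.54 to 0.45 (median -0.0095) over 120 other pairs. It was over 0.1 in 13 of the 30 and 35 of the 120. Of 20 libraries, 10 correlated best with a library of their own number, which is a hint from the data and not from the design. With a replicate block 26 genes passed with Aroclor, 101 with PCB 126, 475 for both agents against Aroclor and 38 for the interaction. With a replicate block and GC offset these were 24 with Aroclor, 116 with PCB 126 and 39 for the interaction, and there were 1818 with both agents and 488 against PCB 126. Sgk1 with both agents passed with the block (0.59, adjusted p = 0.00537), with the block and the GC offset (0.50, adjusted p = 0.0265) and with the FPKM filter (adjusted p = 0.0489), and against PCB 126 with the block (adjusted p = 0.0188). Against HFD control it did not pass with DESeq2 (adjusted p = 0.0511), RLE (0.0826), no filter (0.0811), only the groups compared (0.0870) or the GC offset alone (0.199). Against PCB 126 it did not pass with the block and the GC offset (0.0648).

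Signs turned for values that were not called, many of them near 0. Others were not near 0 before the change, such as Zbtb16 with PCB 126 (-0.45), Mt2 with Aroclor (-0.44) and Mt1 with Aroclor (-0.26). With the GC offset and then with the replicate block added, the log2FC was -0.067 and -0.049 for Tsc22d3 with both agents, 0.016 and 0.0039 for Mt2 against Aroclor, -0.028 and -0.025 for Nr3c1 against PCB 126 and 0.11 and 0.028 for Zbtb16 in the interaction. With PCB 126, Fkbp5 was -0.0083 under the FPKM filter, and Tat was 0.00097 with no filter, 0.015 with the block, 0.0076 with the block and GC offset and 0.0027 with only the groups compared. Leaving out 1 mouse moved the log2FC with Aroclor from -0.29 to 0.11 for Fkbp5, -0.48 to 0.066 for Mt1 and -0.64 to 0.011 for Mt2. With PCB 126 it ran from -0.11 to 0.15 for Fkbp5, -0.063 to 0.24 for Sgk1, -0.82 to 0.54 for Zbtb16, -0.13 to 0.24 for Tat and -0.0087 to 0.52 for Mt1. With both agents it ran from -0.092 to 0.32 for Tsc22d3 and -0.30 to 0.10 for Tat, against Aroclor from -0.0086 to 0.28 for Sgk1 and against PCB 126 from -0.30 to 0.018 for Tat. The interaction ran from -0.098 to 0.21 for Sgk1 and -1.06 to 0.30 for Zbtb16. The highest values for Mt1, Mt2 and Tat against HFD control, and for Zbtb16 with PCB 126, were without control replicate 5. Of the 3 genes most alike to each member, 2 were shared for Nr3c1, Fkbp5 and Tat, 1 for Sgk1, Mt1 and Mt2 and 0 for Tsc22d3 and Zbtb16 when deviations from the group means were used. With GC-adjusted values, an alternative chosen after seeing the data, 2 were shared for Nr3c1, Zbtb16, Mt1 and Mt2, 1 for Tsc22d3 and Tat and 0 for Fkbp5 and Sgk1.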
